A study of Caenorhabditis elegans with 15 samples.

Results

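The 33 protein-coding genes of Caenorhabditis elegans whose RefSeq symbol begins pas-, pbs-, rpt- or rpn- followed by a number encode subunits of the proteasome. They were picked by symbol alone out of 46929 genes in the count table, and all 33 passed the filter on low counts. The set holds 7 pas genes, 7 pbs genes, 6 rpt genes and 13 rpn genes, spread over chromosomes I (10 genes), II (7), III (8), IV (3) and V (5).

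The RNA came from whole worms in 3 groups of 5 libraries. The wild type was the strain N2. The ACP7 OE strain, ABR275, carried a transgene in which the ges-1 promoter, active in the gut, drives F21A3.11, the gene of the secreted phosphatase ACP7, joined through SL2 to the red reporter WormScarlet and ended by the unc-54 3' UTR. The ACP7-7A OE strain, ABR484, carried the same transgene with F21A3.11-7A, a phosphatase-inactive form. The study asked what the gut-made phosphatase does to the transcriptome, with N2 and the inactive form as comparisons. Each construct is represented by a single strain and the labels give no age, so a feature of a strain and an effect of its construct cannot be told apart. The labels do not say whether the libraries of a group came from separate cultures, so p-values measure the spread between these libraries, which may be technical.

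The proteasome degrades proteins that carry ubiquitin chains. Its 20S core is a barrel with outer rings of alpha subunits (pas genes) and inner rings of beta subunits (pbs genes), and PBS-1, PBS-2 and PBS-5 hold the protease sites. The 19S regulatory particle caps the barrel: its ATPases (rpt genes) unfold the substrate and open the core, and its other subunits (rpn genes) bind or remove ubiquitin or form scaffold and lid. In worms the transcription factor SKN-1A raises proteasome genes when proteasome function falls.

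Library totals ran from 39050495 to 58077047 counts, and the members took a mean of 0.737%, 0.770% and 0.785% of the counts of wild type, ACP7 OE and ACP7-7A OE libraries. Apart from rpn-6.2, a member had between 5119 and 25320 counts in a library, and rpn-6.2 had at least 864. The transgene's source gene F21A3.11 averaged 15.03 ± 1.523 CPM for wild type (counts per 1e6, scaled between libraries by TMM), 610 ± 29.8 for ACP7 OE and 1364 ± 229 for ACP7-7A OE (SD, n = 5 each), so the constructs differed in RNA level as well as in the form of the protein. Marker genes of whole worms were present: counts stood in every library for 25 of 25 germline and oocyte markers, 20 of 20 body wall muscle markers, 20 of 20 neuron markers, 16 of 17 intestine markers, 12 of 14 epidermis and cuticle markers and 35 of 41 sperm markers. In whole animals, fewer cells of a type and less RNA per cell cannot be told apart.

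By the median of each subcomplex, the core genes had more RNA per exon length than the cap genes. The median alpha gene stood at 240 ± 9.11 CPM per kb of exon for wild type (SD over 5 libraries), the median beta gene at 204 ± 10.3, the median ATPase gene at 175 ± 7.36 and the median of the 13 rpn genes at 145 ± 6.93. Single genes of core and cap overlapped, with the ATPase gene rpt-1 at rank 7 and the beta gene pbs-2 at rank 26 for wild type. Core genes had exon lengths from 801 bases (pbs-4) to 1059 (pbs-5), and cap genes from 855 (rpn-12) to 3171 (rpn-1). The part of exon length in this order was not tested. Apart from rpn-6.2, the other 32 members lay within 2.59-fold of each other. The alpha subunit gene pas-3 (CELE_Y110A7A.14, chromosome I, 5105110 to 5106048, minus strand) was highest at 295 ± 12.8 CPM per kb and its neighbour in the order, pas-2, stood at 278 ± 13.99, so they overlapped within their SD. At the other end rpn-2 (116 ± 7.46 CPM per kb) and rpn-6.1 (114 ± 7.06) overlapped too. The order held across the groups at both ends: pas-3, pas-2 and pas-5 took ranks 1, 2 and 3, and rpn-2, rpn-6.1 and rpn-6.2 ranks 31, 32 and 33, in each of the 3 groups.

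Within a ring the genes differed although the assembled core holds its subunits in equal number. For wild type pbs-1, the caspase-like protease subunit gene, was the highest beta gene at 237 ± 17.4 CPM per kb, pbs-5, of the chymotrypsin-like site, stood at 204 ± 12.3, and pbs-2, of the trypsin-like site, was lowest at 143 ± 8.01. The highest beta gene was thus 1.66 times the lowest, against 1.5 times among alpha genes and 1.91 times among ATPase genes, where rpt-1 led at 224 ± 11.8 CPM per kb and rpt-6 was last at 117 ± 6.01. Of the rpn genes, the lid subunit gene rpn-3 led at 190 ± 9.61 CPM per kb, and rpn-1 and rpn-2, which encode the large scaffold proteins of the base, stood at 122 ± 11.4 and 116 ± 7.46.

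The subunit RPN-6 is encoded by a pair of genes here. RPN-6.1 is a lid subunit linked in worms to proteasome activity and long life, and RPN-6.2 is its paralog. rpn-6.1 (CELE_F57B9.10, chromosome III, 6959110 to 6962001, minus strand) had 187.7, 181.7, 178.2, 182.3 and 207.3 CPM for wild type, 210.5, 193.4, 190.8, 182.7 and 175.3 for ACP7 OE, and 227.3, 235.3, 206.8, 197.6 and 194.4 for ACP7-7A OE, each in the order of libraries 1 to 5. rpn-6.2 (CELE_F59B2.5, chromosome III, 8999817 to 9001999, minus strand) had 22.66, 23.53, 24.01, 21.75 and 26.08 CPM for wild type, 28.27, 27.26, 25.25, 24.16 and 24.83 for ACP7 OE, and 22.91, 27.82, 21.71, 24.59 and 20.85 for ACP7-7A OE. rpn-6.1 was far above rpn-6.2 in every library, and for both genes the groups overlapped. Per kb the ratio of rpn-6.1 to rpn-6.2 was 7.52 ± 0.37 for wild type, 6.95 ± 0.23 for ACP7 OE and 8.56 ± 0.74 for ACP7-7A OE (SD, n = 5 each). In single libraries the ratio ran from 7.02 to 7.93, 6.68 to 7.15 and 7.6 to 9.39. Wild type thus overlapped each construct, and the constructs did not overlap each other. The ratio was not tested. How the counting treated reads shared by the pair is not given in the labels.

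**Figure D1:**
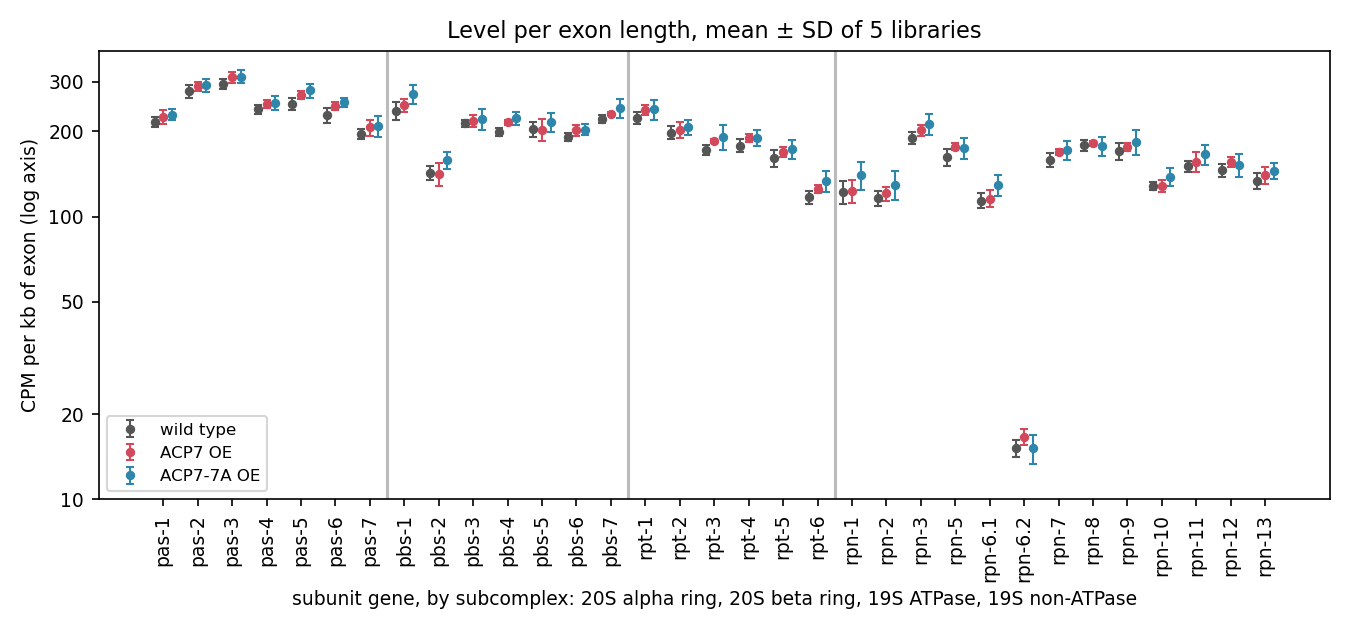
Level of each proteasome subunit gene as CPM per kb of exon (log axis), as mean ± SD of 5 libraries per group, in the order 20S alpha ring, 20S beta ring, 19S ATPase and 19S non-ATPase. For wild type 32 of the genes sit between 114 and 295 CPM per kb, and rpn-6.2 sits alone at 15.2.

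The subunits varied little between libraries. Over all 15 libraries the coefficient of variation of the 32 members other than rpn-6.2 had a median of 6.67%, from 4.64% for the alpha gene pas-4 to 11.5% for the scaffold gene rpn-1. The 1254 other genes in the same range of mean CPM had a median of 7.76%, and 65.1% of them varied more than the median member. By role the median was 5.21% for alpha genes, 6.08% for beta genes, 6.68% for ATPase genes and 7.56% for rpn genes. The ratio of the highest to the lowest library was largest for rpn-1, at 1.41, and smallest for pbs-6, at 1.17.

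What variation there was ran through nearly the whole complex in a few libraries. The members summed to 7045.5, 7255.3, 7186.2, 7219.3 and 7916.0 CPM for wild-type libraries 1 to 5. The same sum was 8172.7, 7641.1, 7680.1, 7432.4 and 7402.6 CPM for ACP7 OE libraries 1 to 5. For ACP7-7A OE libraries 1 to 5 it was 8435.5, 8692.3, 7520.0, 7678.1 and 7422.9 CPM. Wild-type library 5, ACP7 OE library 1 and ACP7-7A OE libraries 1 and 2 were high, and the other ACP7-7A OE libraries lay within the range of ACP7 OE. Wild-type library 5 was the highest of its group for 31 of 33 members, ACP7 OE library 1 for 28 and ACP7-7A OE library 2 for 28. For 29 of 33 members, ACP7-7A OE libraries 1 and 2 both exceeded libraries 3 to 5 of their group. Core and cap were high together in that pair: the median core gene was above the wild-type mean by 0.16 and 0.23 (log2) and the median 19S gene by 0.22 and 0.24.

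**Figure D2:**
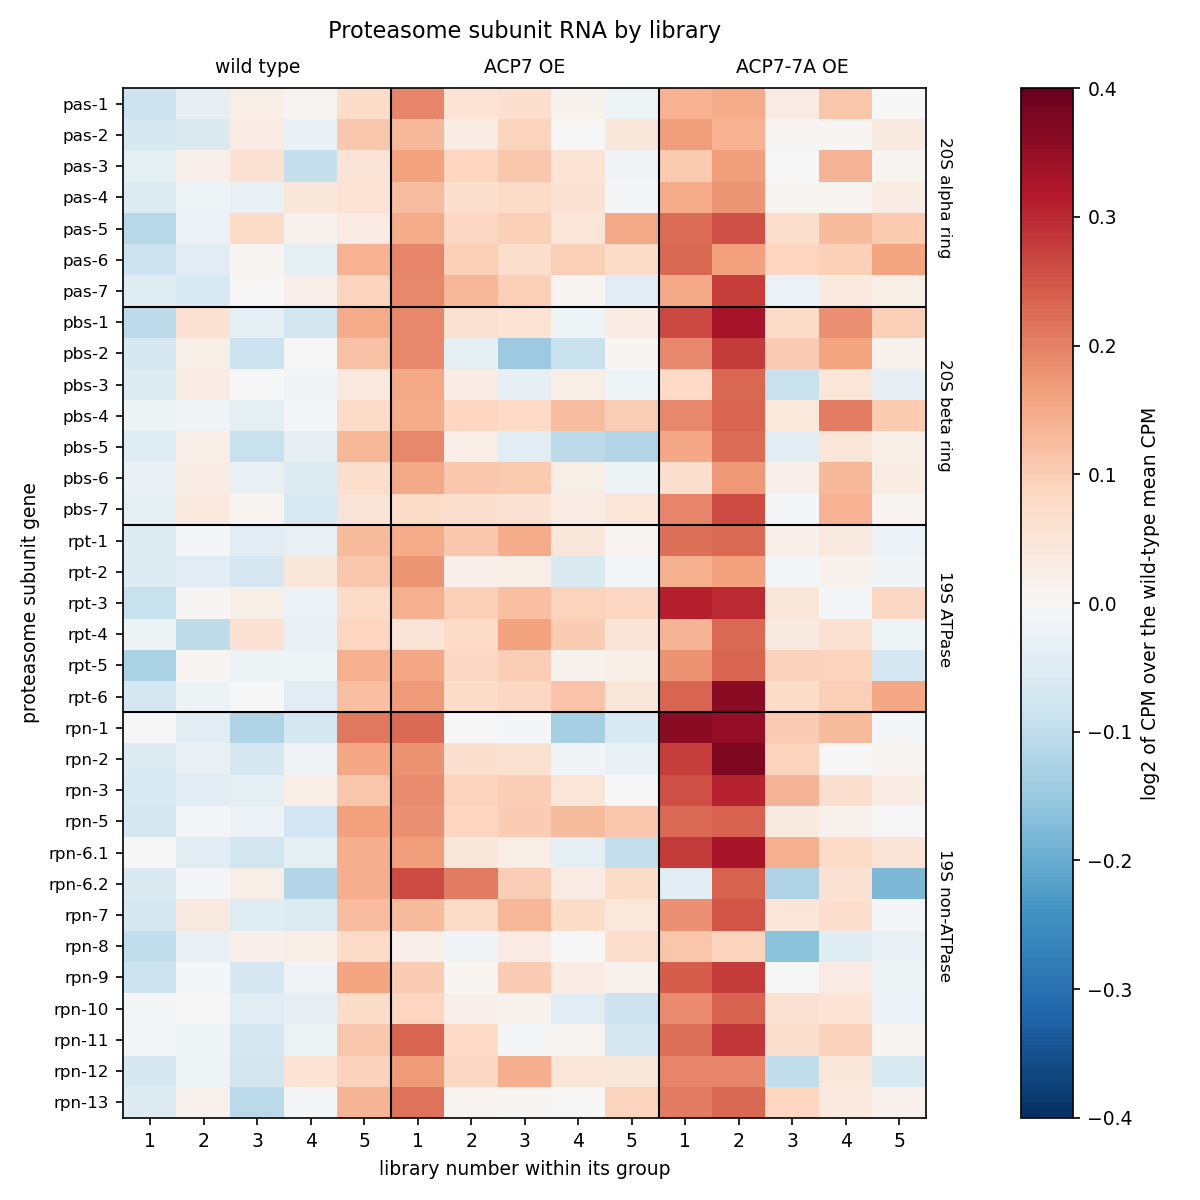
Log2 of the CPM of each proteasome gene (rows, by subcomplex) over its mean CPM for wild type, in each of 15 libraries (columns, by group and library number); red is higher, blue lower. Wild-type library 5, ACP7 OE library 1 and ACP7-7A OE libraries 1 and 2 are red in nearly all rows, with median members at 0.11, 0.17, 0.19 and 0.24. Others are above the wild-type mean in most rows by less: ACP7 OE library 2 for 31 members and ACP7-7A OE library 4 for 30, with medians of 0.07 and 0.06.

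Some other gene lists moved in the same libraries, and some did not. The median of 8 genes of the CCT chaperonin, which folds actin and tubulin, was 8.71 log2 CPM for wild-type library 5 and 8.50 to 8.58 for its group mates. It was 8.68 for ACP7 OE library 1 beside 8.51 to 8.58, and 8.84 and 8.82 for ACP7-7A OE libraries 1 and 2 beside 8.56 to 8.60. The germline and oocyte median was 8.89 for wild-type library 5 beside 8.70 to 8.76, 8.99 for ACP7 OE library 1 beside 8.82 to 8.91, and 8.95 and 8.98 for ACP7-7A OE libraries 1 and 2 beside 8.76 to 8.88. Sperm and muscle lists were low in 3 of these libraries. The sperm median was 1.83 for wild-type library 5 beside 2.35 to 2.65, and 1.04 and 1.15 for ACP7-7A OE libraries 1 and 2 beside 3.03 to 3.14. The body wall muscle median was 7.51 for wild-type library 5 beside 7.96 to 8.04, and 7.22 and 7.39 for ACP7-7A OE libraries 1 and 2 beside 8.12 to 8.19. ACP7 OE library 1 differed here, with the highest sperm median of its group (3.70 beside 3.12 to 3.32) and the highest muscle median (7.85 beside 7.50 to 7.67). The neuron median was lower in each of the high libraries than in the rest of its group: 2.26 for wild-type library 5 beside 2.85 to 2.99, 2.45 for ACP7 OE library 1 beside 2.48 to 2.67, and 2.34 and 2.18 for ACP7-7A OE libraries 1 and 2 beside 2.52 to 2.69. The median of 78 ribosomal protein genes was high for ACP7 OE library 1 (10.19 beside 10.02 to 10.07) and ACP7-7A OE library 2 (10.10). It was not for wild-type library 5 (10.07 beside 10.03 to 10.08) or ACP7-7A OE library 1 (9.99). The intestine median was highest of its group for wild-type library 5 (5.59 beside 5.17 to 5.38). For ACP7-7A OE library 1 it was the lowest (4.80) and for library 2 the highest (5.00), beside 4.84 to 4.93. The epidermis and cuticle median was lowest of its group for wild-type library 5 (2.73 beside 3.10 to 3.45). For ACP7-7A OE libraries 1 and 2 it was higher than in the rest (2.89 and 2.86 beside 2.57 to 2.81). ACP7 OE library 1 had 3.13 beside 2.60 to 3.38.

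Summed over each list, the levels of wild type, ACP7 OE and ACP7-7A OE ran over 14300 to 17430, 15160 to 18580 and 17080 to 21280 CPM for germline and oocyte markers. For sperm markers they ran over 170 to 249, 338 to 520 and 94.9 to 371 CPM, and for muscle markers over 5799 to 8122, 5742 to 7657 and 5719 to 10430 CPM. The muscle markers include unc-54, whose 3' UTR ends both transgenes. Transgene reads may thus have been counted as unc-54 in both strains that carry one, and how far was not tested. Intestine markers ran over 2807 to 4148, 3818 to 4805 and 2838 to 3429 CPM, neuron markers over 325 to 365, 320 to 360 and 301 to 379, and epidermis and cuticle markers over 1074 to 1665, 1195 to 1384 and 783 to 1435. No marker of these lists was at 0 in all 15 libraries. Of 25 germline and oocyte markers 13 rose in ACP7-7A OE against wild type (edgeR, 17 by DESeq2), where 2.66% of all genes did. None of these markers passed in ACP7 OE (edgeR, 0 also by DESeq2). At an unadjusted p under 0.05 (edgeR) 7 were higher there, where 7.82% of all genes were. Of 39 sperm markers tested, 2 rose in ACP7 OE (edgeR, 6 by DESeq2), where 1.48% of all genes did by edgeR. At an unadjusted p under 0.05 (edgeR) 21 sperm markers were higher, where 7.82% of all genes were. The median log2 fold change of the 39 was 0.95. For 31 of the 39 every ACP7 OE library was above every wild-type library, where 4.39% of all genes showed this. No body wall muscle or neuron marker passed in ACP7 OE against wild type (edgeR or DESeq2). Their median log2 fold changes were -0.235 and -0.229, with 1 of 20 and 2 of 20 positive. At an unadjusted p under 0.05 (edgeR) 8 muscle and 5 neuron markers were lower and 0 higher, where 8.63% of all genes were lower. Of 16 intestine markers tested, 4 fell in ACP7-7A OE against wild type (median log2 fold change -0.21), and 3 of 14 epidermis and cuticle markers fell too. Among all genes 4.2% fell in that comparison. Between the constructs 5 intestine markers were higher for ACP7 OE than for its inactive counterpart (median 0.30), where 4.79% of all genes were. There 5 of 25 germline and oocyte markers and 2 of 20 body wall muscle markers were lower for ACP7 OE, where 3.76% of all genes were. Sperm markers had 2 higher and 1 lower there. The part of these tissue markers and libraries in the proteasome values was not tested.

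**Figure D3:**
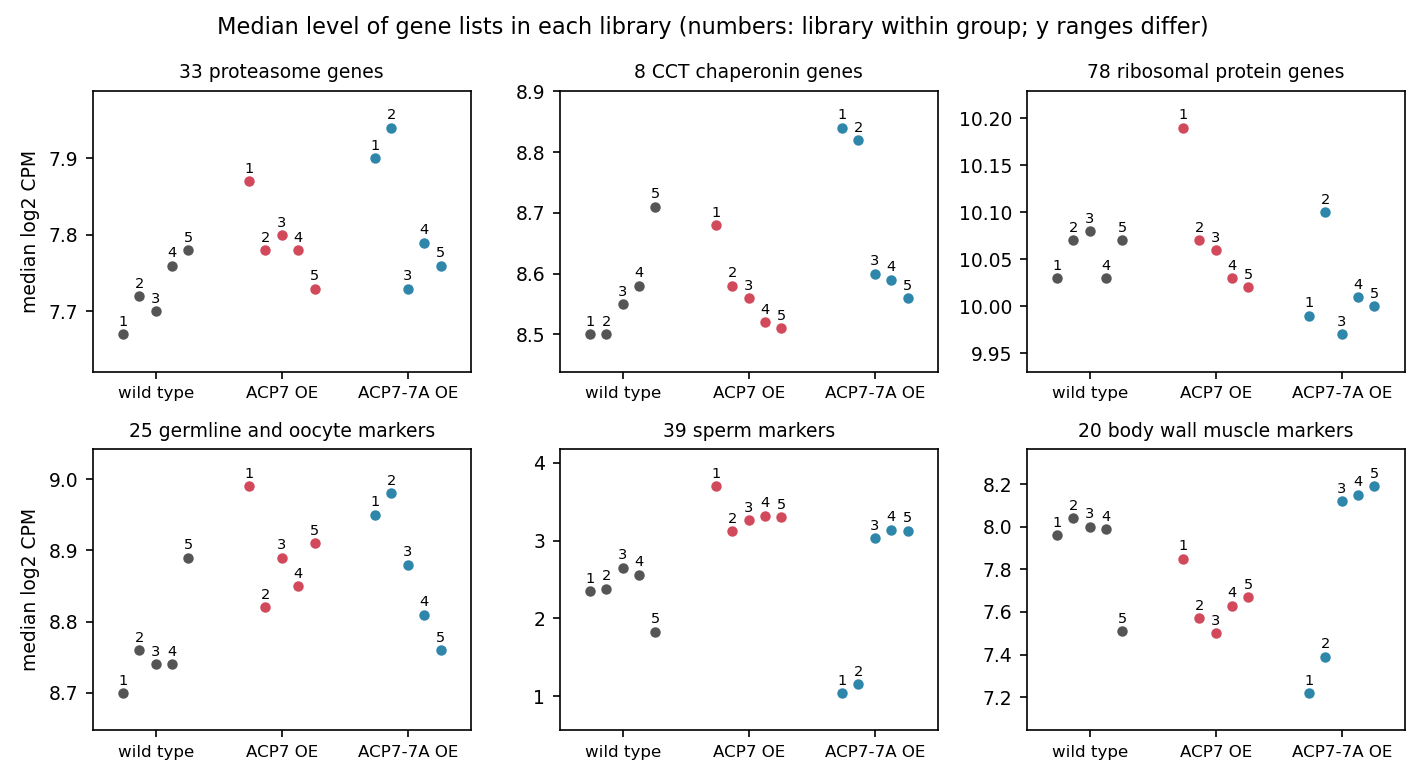
Median log2 CPM in each library (points, numbered by library within its group) of the 33 proteasome genes, 8 CCT chaperonin genes, 78 ribosomal protein genes and the germline, sperm and muscle markers; the y ranges differ between panels. ACP7-7A OE libraries 1 and 2 are above libraries 3 to 5 for the proteasome, CCT and germline lists, and below them for sperm and muscle.

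With the active form, no subunit gene passed the test against wild type. The members' median log2 fold change was 0.07, against -0.004 for all genes, and 30 of 33 members had a positive value, against 7742 of 15725 genes. Without wild-type library 1 that median was 0.04. By role the medians were 0.08 for alpha, 0.06 for beta, 0.09 for ATPase and 0.06 for the rpn genes. The threshold was a Benjamini-Hochberg adjusted p under 0.05 over 15725 genes from edgeR's quasi-likelihood fit, and 0 of 33 members met it, where 2.68% of all genes did (1.48% higher, 1.2% lower). At an unadjusted p under 0.05 there was 1 member, higher, against 16.5% of all genes (7.82% higher, 8.63% lower), and DESeq2 called 0. Each 95% interval, taken singly, lay between 0.900-fold (lower end, rpn-1) and 1.245-fold (upper end, rpn-6.2).

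The structural beta gene pbs-4 (CELE_T20F5.2, chromosome I, 3908747 to 3909701, plus strand) had the smallest p. Its wild-type libraries had 157.8, 158.8, 155.7, 159.2 and 168.95 CPM and its ACP7 OE libraries 177.6, 170.0, 169.05, 174.5 and 171.6. The lowest ACP7 OE library, number 3, was barely above the highest wild-type library, number 5, so the groups did not overlap. The log2 fold change was 0.11 (SE 0.05, edgeR adjusted p = 0.27). The lid gene rpn-5 (CELE_F10G7.8, chromosome II, 4696421 to 4698294, minus strand) had 255.8, 267.2, 264.2, 254.6 and 301.1 CPM across wild type, then 304.8, 285.3, 287.9, 293.4 and 289.5 across ACP7 OE. Wild-type library 5 was above all but 1 of the ACP7 OE libraries, while the other 4 were below all of them. The difference was 0.12 (log2, SE 0.06, edgeR adjusted p = 0.31).

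The alpha gene pas-6 (CELE_CD4.6, chromosome V, 5583161 to 5584343, minus strand) had 213.9, 220.0, 227.7, 220.8 and 249.3 CPM across wild type, then 259.1, 241.8, 237.5, 241.8 and 238.0 across ACP7 OE. Again only wild-type library 5 reached into the other group, and the difference was 0.11 (log2, SE 0.05, edgeR adjusted p = 0.31). Every ACP7 OE library was above every wild-type library for 2 of 33 members, pbs-4 and the ATPase gene rpt-3, where 4.39% of all genes showed this. None was below without overlap, where 2.33% of all genes were. Without wild-type library 5 alone 0 members passed, at a smallest adjusted p of 0.079, where 1.81% of all genes were higher. Leaving out the pair of ACP7-7A OE libraries 1 and 2 as well, 4 members passed as higher in ACP7 OE, where 6.28% of all genes did: rpn-5 (log2 0.15, adjusted p = 0.0052), pas-6 (0.13, adjusted p = 0.024), rpt-1 (0.11, adjusted p = 0.047) and rpt-3 (0.11, adjusted p = 0.049). Wild-type library 5 was the highest of its group for 31 of 33 members, so leaving it out lowers the wild-type mean of these genes, and the 4 calls are no independent support.

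Protease subunit genes pbs-2 and pbs-5 were among the 4 members with the largest p. The chymotrypsin-like pbs-5 (CELE_K05C4.1, chromosome I, 14719167 to 14720477, minus strand) had 208.6, 219.7, 202.4, 210.7 and 236.1 CPM across wild type, then 246.1, 219.7, 208.7, 200.5 and 198.8 across ACP7 OE. The groups overlapped throughout, and the fold was 0.997 (95% interval 0.909 to 1.093, edgeR adjusted p = 0.98). For the trypsin-like pbs-2 the fold was 0.994 (0.906 to 1.089, adjusted p = 0.96), from means of 143.5 CPM for wild type and 142.6 for ACP7 OE. For the caspase-like pbs-1 it was 1.047 (0.959 to 1.143, adjusted p = 0.65), from means of 194.8 and 203.9 CPM.

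**Figure D4:**
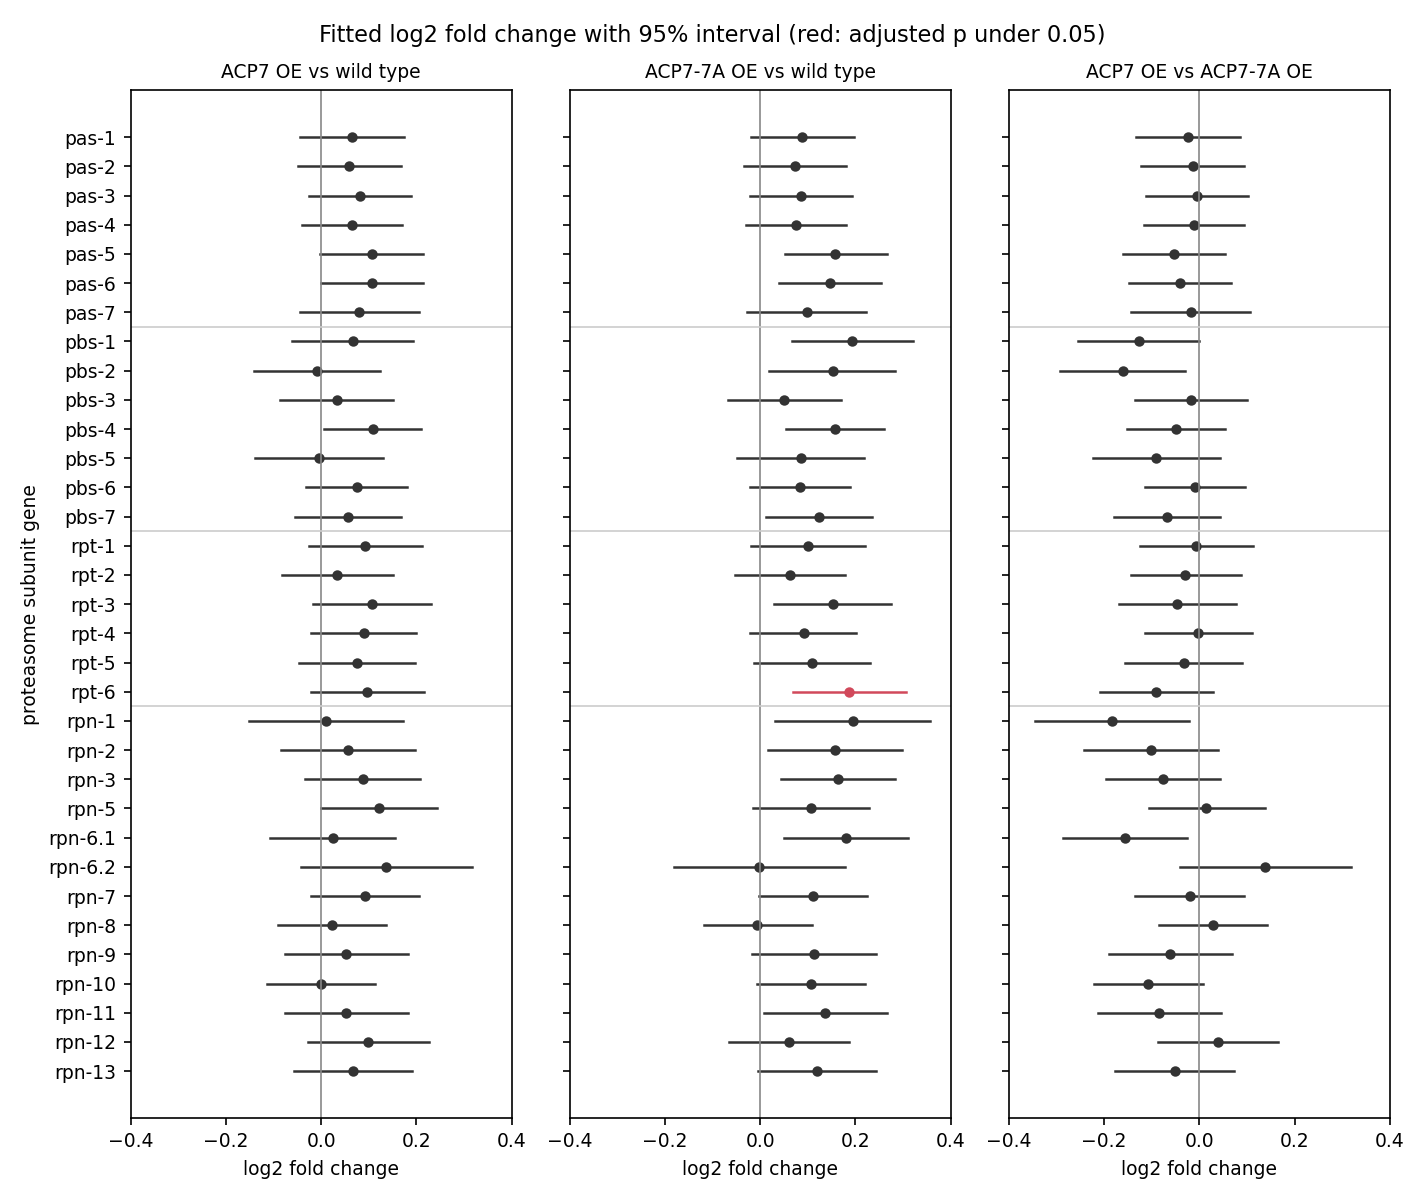
Fitted log2 fold change (points) and 95% interval (lines) of each proteasome gene in the 3 comparisons, by subcomplex. Most points are right of 0 against wild type, and rpt-6 in ACP7-7A OE, at 0.19, is the single member with an adjusted p under 0.05 (red).

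With the inactive form, 1 subunit gene passed. rpt-6, an ATPase gene of the 19S base (CELE_Y49E10.1, chromosome III, 12370456 to 12372607, plus strand), had 157.3, 162.4, 165.0, 160.0 and 178.9 CPM across wild type. It had 185.2, 173.4, 174.5, 178.2 and 169.9 CPM across ACP7 OE, and 193.6, 211.7, 173.3, 176.0 and 183.3 across ACP7-7A OE. Wild-type library 5 was above ACP7-7A OE libraries 3 and 4, and the other wild-type libraries were below that group. rpt-6 rose in ACP7-7A OE by 1.139-fold over wild type (95% interval 1.049 to 1.236; log2 0.19, SE 0.06, edgeR adjusted p = 0.049). The call was lost, at an adjusted p from 0.052 to 0.15, on leaving out any of 10 libraries: wild-type 1, 2, 3 or 4, ACP7 OE 2, 4 or 5, or ACP7-7A OE 1, 2 or 5. With neither ACP7-7A OE library 1 nor 2 the value was 0.105 (log2, adjusted p = 0.26).

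Of 33 members 1 was thus higher and 0 lower, where 6.86% of all genes passed (2.66% higher, 4.2% lower; edgeR). At an unadjusted p under 0.05 there were 13 members, all higher, against 24% of all genes (11.2% higher, 12.8% lower). The median log2 fold change was 0.11, against 0.00 for all genes, and 31 of 33 were positive, against 7844 of 15725 genes. That median was 0.07 without ACP7-7A OE library 2, 0.04 without library 1 as well, and 0.06 with wild-type library 5 also left out. By role the medians were 0.09 for alpha, 0.12 for beta, 0.10 for ATPase and 0.11 for the rpn genes. No member had groups that did not overlap, where 2.12% of all genes were higher and 2.92% lower without overlap. These values and those of ACP7 OE rest on the same 5 wild-type libraries.

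The number called moved with the method and the libraries, and so did the share of all genes called higher. DESeq2 called 7, namely pas-5, pas-6, pbs-1, pbs-4, rpn-3, rpn-6.1 and rpt-6, where 4.95% of all genes were higher. Without wild-type library 5 edgeR called those 7 and rpn-1, a total of 8, where 5.56% of all genes were higher. It called 4 without ACP7 OE library 3 (3.44% of all genes), 3 without ACP7 OE library 1 (3.37%) and likewise 3 without ACP7-7A OE library 5 (3.53%). Leaving out ACP7-7A OE library 3 gave 2 (1.83%). It called 0 without any one of wild-type 1 to 4, ACP7 OE 2, 4 or 5, or ACP7-7A OE 1 or 2, where between 0.728% and 2.12% of all genes were higher. With neither ACP7-7A OE library 1 nor 2 the count was 0 (2.51%), and with wild-type library 5 left out as well it was 1, pas-6 (log2 0.15, adjusted p = 0.031), where 4.21% of all genes were higher.

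The caspase-like protease gene pbs-1 (CELE_K08D12.1, chromosome IV, 1708814 to 1709745, minus strand) was near the threshold. It had 181.0, 202.6, 189.4, 185.1 and 215.9 CPM across wild type, 222.6, 203.1, 202.2, 192.7 and 198.9 across ACP7 OE, and 234.2, 245.0, 205.1, 220.9 and 208.3 across ACP7-7A OE. Only wild-type library 5 reached into the ACP7-7A OE range, and the fold against wild type was 1.143 (95% interval 1.047 to 1.248, edgeR adjusted p = 0.058). pbs-2 had a mean of 159.4 CPM for ACP7-7A OE and a fold of 1.111 (1.013 to 1.217, adjusted p = 0.15). pbs-5 had 239.8, 251.8, 209.2, 223.0 and 219.0 CPM across ACP7-7A OE, overlapping wild type, and a fold of 1.061 (0.967 to 1.163, adjusted p = 0.45). The paralogs differed in value: rpn-6.1 stood at 0.18 (log2, SE 0.06, edgeR adjusted p = 0.088) and rpn-6.2 of -0.002 (SE 0.09, adjusted p = 0.99). The other member below 0 was the lid gene rpn-8, at -0.006 (adjusted p = 0.97).

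**Figure D5:**
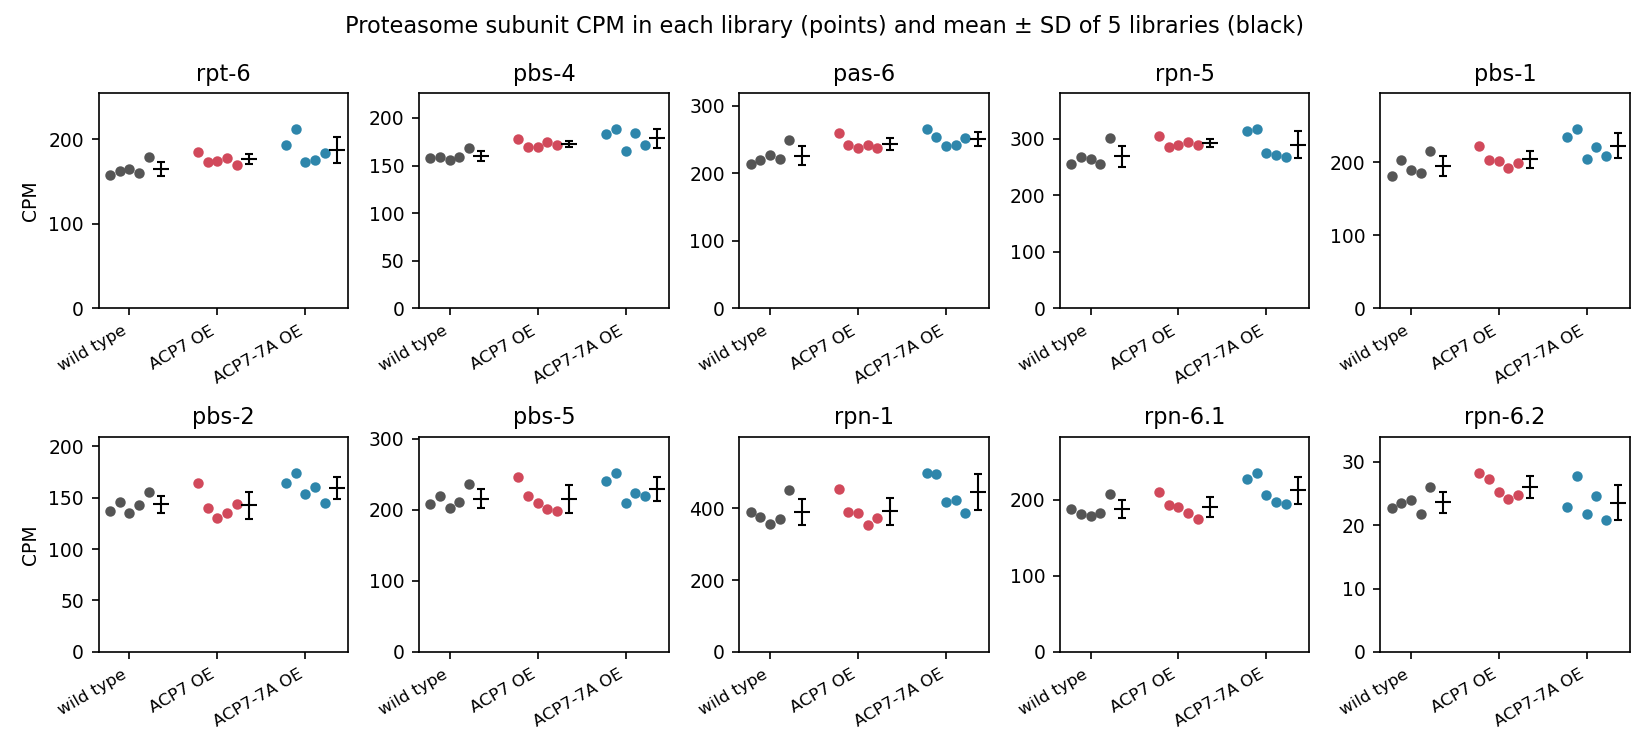
CPM in each of 5 libraries per group (points, libraries 1 to 5 from left to right) with the mean ± SD beside them (black) for 10 proteasome genes, on axes from 0. The leftmost pair of ACP7-7A OE points, libraries 1 and 2, lies above libraries 3 to 5 for rpt-6, pas-6, rpn-5, pbs-1, pbs-2, pbs-5, rpn-1 and rpn-6.1.

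The active and inactive forms were then compared directly. The members' median log2 fold change, ACP7 OE over ACP7-7A OE, was -0.04, against -0.005 for all genes, and 4 of 33 members were positive, against 7726 of 15725 genes. By role the medians were -0.02 for alpha, -0.07 for beta, -0.03 for ATPase and -0.06 for the rpn genes. No member passed, where 8.56% of all genes did (4.79% higher, 3.76% lower; edgeR), and DESeq2 called 0. At an unadjusted p under 0.05 there were 4 members, all lower, against 22.9% of all genes (11.7% higher, 11.2% lower). No member was free of overlap, where 4.21% of all genes were higher and 2.87% lower without it. The intervals lay between 0.787-fold (rpn-1) and 1.247-fold (rpn-6.2), and a p that misses the threshold does not show that the forms act alike.

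The smallest p belonged to the protease gene pbs-2 (CELE_C47B2.4, chromosome I, 12967216 to 12968280, minus strand). It had 137.4, 145.8, 135.3, 143.2 and 155.8 CPM across wild type, 164.1, 139.7, 129.8, 135.0 and 144.3 across ACP7 OE, and 164.0, 174.1, 153.9, 160.1 and 144.9 across ACP7-7A OE. ACP7 OE library 1 lay among the ACP7-7A OE libraries and the other 4 lay below them, and the difference was -0.16 (log2, SE 0.06, edgeR adjusted p = 0.13). rpn-6.1 showed the same layout, with ACP7 OE library 1 alone inside the other group, and a difference of -0.16 (log2, SE 0.06, adjusted p = 0.13). The scaffold gene rpn-1 (CELE_T22D1.9, chromosome IV, 6906420 to 6909913, minus strand) had 388.3, 376.4, 356.9, 370.1 and 449.5 CPM across wild type, 453.8, 388.6, 385.9, 354.3 and 372.0 across ACP7 OE, and 498.5, 495.3, 416.6, 423.9 and 386.5 across ACP7-7A OE. ACP7 OE libraries 1 and 2 reached into the ACP7-7A OE range, and the difference was -0.18 (log2, SE 0.08, adjusted p = 0.16). Without ACP7 OE library 1 these 3 genes passed as lower, where 5.83% of all genes did: pbs-2 at -0.22 (adjusted p = 0.019), rpn-1 at -0.24 (adjusted p = 0.033) and rpn-6.1 at -0.19 (adjusted p = 0.047). Without ACP7-7A OE libraries 1 and 2 no member passed, and the median of the members was 0.01. That median was -0.01 without either library alone (-0.012 and -0.008), -0.03 with ACP7 OE library 5 left out and -0.06 when ACP7-7A OE library 5 was.

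Of 7 genes of the SKN-1A response, edgeR and DESeq2 each called 0 in every comparison. At an unadjusted p under 0.05 (edgeR) there were 0 for ACP7 OE, 2 for ACP7-7A OE and 2 between the constructs. The 2 for ACP7-7A OE were higher, where 11.2% of all genes were. The 2 between the constructs were lower for ACP7 OE, where 11.2% of all genes were. The median log2 fold changes of the list were -0.01, 0.12 and -0.06, with 2, 6 and 1 of 7 genes positive. skn-1 averaged 231 ± 11.2 CPM for wild type, 230 ± 14.8 for ACP7 OE and 256 ± 15.2 for ACP7-7A OE (SD, n = 5 each; edgeR adjusted p = 0.96 and 0.11 against wild type). For ACP7 OE over ACP7-7A OE skn-1 stood at -0.156 (log2, SE 0.056, edgeR adjusted p = 0.089). ddi-1, whose product cuts SKN-1A, averaged 118.8 ± 5.83, 125 ± 5.38 and 129.8 ± 10.7 CPM (adjusted p = 0.55 and 0.18), and png-1, whose product removes its sugars, 46.2 ± 3.47, 45.3 ± 2.70 and 51.02 ± 4.91 CPM (adjusted p = 0.90 and 0.23). These 3 genes were chosen after their values were seen, and gene counts do not separate skn-1 isoforms.

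Of 11 assembly factors and partners tested, edgeR called 0 in each comparison, and DESeq2 called 0, 1 and 0. At an unadjusted p under 0.05 (edgeR) there were 0, 4 and 1 for ACP7 OE, ACP7-7A OE and between the constructs. The 4 were higher in ACP7-7A OE, where 11.2% of all genes were. The 1 was lower for ACP7 OE than for ACP7-7A OE, where 11.2% of all genes were. Their median log2 fold changes were 0.03, 0.10 and -0.04. Of 25 genes for ubiquitin, its transfer and the unfoldase p97, edgeR called 0 against wild type in either strain. At an unadjusted p under 0.05 (edgeR) 1 was higher and 1 lower in ACP7 OE. In ACP7-7A OE 10 were higher and 0 lower, where 11.2% of all genes were higher and 12.8% lower. DESeq2 called 0 in ACP7 OE and 7 higher in ACP7-7A OE, where it called 4.95% of all genes higher. The median log2 fold changes were 0.04 and 0.12, with 20 and 22 of 25 genes positive. Between the constructs ubc-3, a ubiquitin-conjugating enzyme gene, was lower for ACP7 OE (81.4 ± 8.16 CPM) than for ACP7-7A OE (95.6 ± 7.65; log2 -0.23, edgeR adjusted p = 0.032). It was 1 of 25 genes, where 3.76% of all genes were lower. The median of the list there was -0.06. Of the 8 CCT genes edgeR called 0 in each comparison, and DESeq2 called 0, 2 and 0. At an unadjusted p under 0.05 (edgeR) there were 0, 5 and 2. The 5 were higher in ACP7-7A OE, where 11.2% of all genes were. The 2 were lower for ACP7 OE than for ACP7-7A OE, where 11.2% of all genes were. The median log2 fold changes of the 8 genes were 0.03, 0.155 and -0.12.

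Autophagy, the other main route of protein breakdown, gave a few calls. Of 26 genes, epg-2 fell in ACP7 OE from 40.2 ± 2.86 to 31.4 ± 3.01 CPM (log2 -0.36, edgeR adjusted p = 0.025) and atg-2 from 56.1 ± 2.22 to 45.7 ± 5.51 CPM (log2 -0.30, adjusted p = 0.034). These were 2 of 26, where 1.2% of all genes fell. ACP7-7A OE had 0 calls against wild type (edgeR, 3 at an unadjusted p under 0.05, 2 by DESeq2). At that unadjusted p 24% of all genes passed. epg-8 was higher for ACP7 OE than its inactive counterpart, at 51.5 ± 10.4 against 37.4 ± 6.91 CPM (log2 0.46, edgeR adjusted p = 0.049). It was 1 of 26, where 4.79% of all genes were higher. Most of the list went the other way between the constructs, with 3 of 26 genes positive and a median log2 fold change of -0.10. At an unadjusted p under 0.05 (edgeR) 1 gene was higher and 7 lower for ACP7 OE. Among all genes 11.7% were higher and 11.2% lower at that p. DESeq2 called 1 higher and 2 lower in the list. Of 78 cytosolic ribosomal protein genes, 0 passed in ACP7 OE against wild type (edgeR; 3 at an unadjusted p under 0.05, 0 by DESeq2). In ACP7-7A OE rps-2 rose from 1360 ± 69.4 to 1550 ± 94.2 CPM (adjusted p = 0.033) and 3 genes fell, among them rpl-36A from 924 ± 52 to 797 ± 59.1 CPM and rpl-14 from 886 ± 37.4 to 779 ± 26.5 CPM (adjusted p = 0.021 for each). These were 1 higher and 3 lower of 78, where 2.66% of all genes rose and 4.2% fell. Between the constructs 8 ribosomal genes were higher for ACP7 OE and 0 lower (edgeR), where 4.79% of all genes were higher and 3.76% lower. At an unadjusted p under 0.05 (edgeR) there were 27 higher and 2 lower, where 11.7% of all genes were higher and 11.2% lower. DESeq2 called 19 ribosomal genes higher and 1 lower. The median ribosomal gene stood at -0.03 (log2) in ACP7-7A OE against wild type, and whether any of these lists differs from the proteasome was not tested.

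Some members share exon bases with a neighbour, and since no strand setting is stated, reads of such pairs cannot be told apart. rpn-7 shared the most, 394 bases or 20.8% of its exon length, with nemt-1 on the other strand. rpn-9 shared 140 bases with a noncoding RNA gene, rpt-4 103 with rpoa-49 and pbs-4 73 with mrrf-1, all on the other strand, and pbs-7 shared 70 with K07A12.5 on its own strand. rpt-6 shared 26 bases, or 1.85% of its exon length, with glrx-5.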

How the data were processed

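Poly(A) RNA of about 1000 whole worms per library was sequenced in pairs of 150 bases, per the labels. The authors deposited raw counts per gene from featureCounts 2.0.6 (per the file headers). The submitters' processing notes list Trim Galore, STAR and WBcel235. Strand, multi-mapping and mate settings were not stated. Between 81.3% and 86.1% of values from 5 to 39 were even, a pattern that counting mates separately would give, so halved counts were an alternative. Length in the deposited table is exon length in bases, and coordinates are those of that table. Symbols came from a RefSeq table that matched 46925 IDs.

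All 15 libraries entered one edgeR 4.0.16 fit (R 4.3.3) with filterByExpr, TMM and a robust quasi-likelihood F test, adjusted by Benjamini-Hochberg over 15725 genes per comparison at 0.05. SE and 95% intervals follow from that test. List medians are of log2 CPM with a prior count of 2. DESeq2 1.42.0 was an alternative. The procedure was tested on simulated data in which genes varied independently. That test does not cover shifts shared by many genes of a library, as seen here. Members, lists and the libraries left out together were chosen with earlier results of these data known. Values per library are given for called members, else the 3 smallest p per comparison, the catalytic subunits and the paralogs; of each list up to 3 called genes with the smallest p are named.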

Additional observations from a re-analysis of the deposited data

Results flagged for a closer look

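Wild-type library 5 lay far above the other wild-type libraries for the summed level of the members, 7916.0 CPM against 7045.5 to 7255.3. The same library stood apart for pbs-4 (169.0 CPM against 155.7 to 159.2), rpn-2 (409.0 against 351.8 to 363.8), rpn-5 (301.1 against 254.6 to 267.2) and rpt-1 (369.4 against 326.3 to 336.5). ACP7 OE library 1 stood apart for pas-6, with 259.1 CPM against 237.5 to 241.8 in the other ACP7 OE libraries. In each case the gap to the nearest library, divided by the range of the group of 5, was above Dixon's 95% critical value of 0.71. These are 6 of 102 groups examined, and chance flags about 1 group in 20, though the members' values move together and are not independent.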

How the results depend on the processing

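Under the 25 alternatives no member was called lower against wild type, and none higher between the constructs. In ACP7 OE against wild type the count of higher members was 0 except on leaving out wild-type library 5 with ACP7-7A OE libraries 1 and 2 (4). In ACP7-7A OE against wild type the 1 higher member became 4 with RLE size factors, 6 with upper quartile size factors, 7 with DESeq2, 0 with no filter on low counts, 4 with at least 50 counts in 5 libraries, 0 with only the 2 groups compared, 0 with the replicate block and 0 when ACP7-7A OE libraries 1 and 2 were left out, and ran from 0 to 8 with single libraries left out. Between the constructs the lower members ran from 0 to 3 with single libraries left out. The replicate block changed no other count of members; no label says that numbers mark a shared source, same-numbered libraries deviated together with correlations from -0.372 to 0.19, and at most 1 of 5 matched its own number best. The members' median log2 fold change ran from 0.04 to 0.08, 0.04 to 0.14 and -0.06 to 0.01 in the 3 comparisons. The values reported were 0.067, 0.108 and -0.041. Without ACP7-7A OE libraries 1 and 2, the median of ACP7-7A OE against wild type fell to 0.037. The median between the constructs changed sign there, to 0.013. The SD between single libraries, 0.08, cannot show these medians to be stable, since it is larger in size than 0.067 and -0.041. rpt-6 was called under 10 alternatives, with log2 fold changes from 0.105 to 0.215 and adjusted p from 0.012 to 0.26 over all 25. Of 2475 single values 153 changed sign, none of them called and none above 0.102 in size. Genes called among all tested ran from 256 to 2434 (422 reported), 402 to 2248 (1079) and 883 to 2212 (1346), so the background rates move as well. The cause was not tested. Each member had at least 864 counts in every library.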
